A study of Mus musculus with 11 samples.

Results

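The genes described here are 58 mouse genes that lie together on chromosome 8 (GRCm38), from Mmaa at base 79263598 to Got2 at base 95864134, in a stretch where most transcripts were less abundant after a short hairpin against Drp1 than after a random hairpin. They were listed by symbol and matched to the count table by Ensembl identifier. A row was found for 57 of the 58, among 15113 genes in the table, and these 57 all passed the filter on low counts, as did 13025 genes in all. Stx10 had no matched identifier and was not analysed here. They were chosen by the low log2 fold changes of their window in this same comparison of Drp1 with control libraries, so the members' fold changes are a description and carry no test. The window extends somewhat past the members on both sides.

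The libraries came from C2C12 cells, a mouse skeletal myoblast line, which the labels place at an early stage of myotube formation and at passages 2 to 5. Control libraries (n = 6) carried shRandom, a hairpin with no stated target, and Drp1 libraries (n = 5) carried shDRP1, a hairpin against the GTPase that divides mitochondria, whose gene is Dnm1l. Both groups were therefore hairpin-bearing cells of the same line, and the sources used here do not give how the hairpins were delivered, whether cells were selected or cloned, or whether libraries came from separate cultures. P-values hence rest on library-to-library spread alone, part or all of which may be technical. Poly(A) RNA was counted by 3' tags (QuantSeq), so a level, in CPM (counts scaled to library size, after TMM), reflects tags near the end of a transcript.

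Neighbours on a chromosome mostly share no function. The RNA of each gene depends on its own promoter and enhancers, and also on the number of copies and the chromatin state of the stretch of DNA that holds it. The stretch considered here holds genes of quite different roles: SMAD signalling, protein kinase A, chromatin remodelling, ubiquitin transfer, amino acid metabolism, endosomal sorting and the metallothioneins, small cysteine-rich proteins that bind zinc and copper.

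Total counts ran from 12277622 to 23082617 per library. Dnm1l lay between 67.1 and 86.3 CPM in control and between 14.5 and 21 CPM in Drp1 libraries, 23.7% of the control mean (adjusted p = 2.7e-10, edgeR quasi-likelihood test). Markers of myotubes, the stage the labels name, were abundant in the control libraries and low in the Drp1 libraries. They bear on the stage and do not decide whether the cells were of the labelled line. The 15 myotube markers, Myod1, Myog and Acta1 among them, summed to 12791 to 13807 CPM in control libraries and to 175.1 to 235.0 CPM in Drp1 libraries, and 15 of 15 fell. Of 6 smooth muscle markers, 5 had a row and 4 rose, and the 5 summed to 2581 to 3064 CPM in control and 8697 to 10665 CPM in Drp1 libraries. Of the other lists, 2 of 6 adipocyte, 2 of 5 osteoblast, 1 of 5 immune and 0 of 5 endothelial markers had a row in the table, and their sums stayed at or below 42.5 CPM in every library. The marker sums differed between the groups together with the members' levels, and their part in the members' levels was not tested. In bulk RNA, fewer cells of a type and less RNA per cell cannot be told apart.

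Most members were less abundant in the Drp1 libraries, with about 50% of the control level left. The median log2 fold change of Drp1 over control was -1.03 over the 57 members, against 0.03 over all genes tested, and the middle 50% of members lay between -1.45 and -0.83. Expressed as a share of the control mean, the median member kept 48.9% (middle 50%, 36.6% to 56.2%). Of the 57, 54 had a negative and 3 a positive fold change. In 47 members every Drp1 library lay below every control library, a pattern seen in 25.4% of all genes tested. By edgeR, 51 members were called lower at an adjusted p of 0.05, where the share over all genes was 33.3%, and 2 were called higher, where it was 33.9%. Since low values in this contrast chose the stretch, nothing is read from these counts. Without control replicate 1 and Drp1 replicate 2, chosen after seeing the data, the groups did not overlap in 47 members and the median was -1.14.

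**Figure D1:**
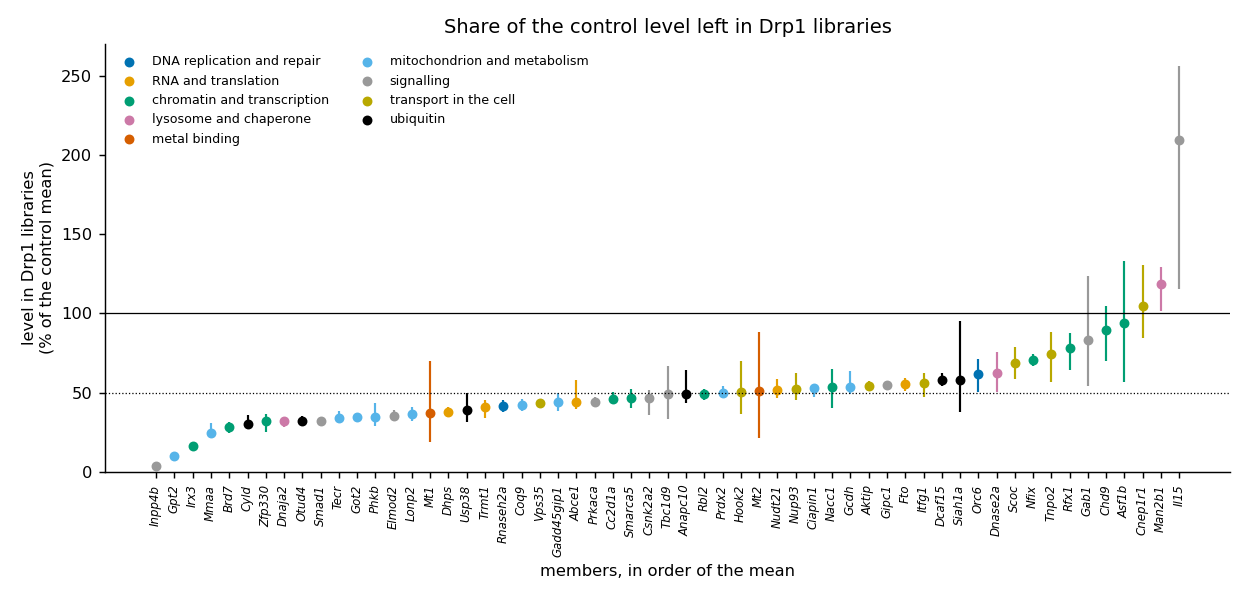
Each dot is the mean level of a member over the 5 Drp1 libraries as a percentage of its control mean (y axis), with a line from the lowest to the highest Drp1 library and colours for the role of the gene; members are in order along the x axis. Of the 57 members, 27 lie between 40% and 60%, around the dotted line at 50%, Inpp4b is lowest at 3.55% and Il15 highest at 209.2%.

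The shares left were spread over several bands. Between 40% and 60% of the control mean was left for 27 members (47.4%), whereas 6.69% of all genes tested fell in that band. Another 14 members (24.6%) kept 25% to 40%, against 3.16% of all genes tested. Under 25% was left for 4 members, namely Inpp4b, Gpt2, Irx3 and Mmaa. They were 7.02% of members, near the 7.82% of all genes tested in that band. At the upper end, Orc6, Dnase2a, Scoc, Nfix, Tnpo2 and Rfx1 kept 60% to 80% (10.5% of members, 12.6% of all genes tested). Gab1, Chd9, Asf1b, Cnep1r1, Man2b1 and Il15 kept over 80% and did not follow the low values of their neighbours. That band held 10.5% of members and 69.6% of all genes tested.

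The low values ran over the whole length covered by the members. The first member by position, Mmaa, starts at 79263598 and the last, Got2, at 95864134, a distance of 16.6 Mb. The median fold change of the 21 members within 5 Mb of the first amounted to 46.1% of control, that of the 23 members 5 to 10 Mb away to 49.8%, and that of the 13 members beyond 10 Mb to 50.7%. The other 83 tested genes of the window, which are not on the list, had a median of -1.16, and 70 of them had a negative fold change. Low values in this contrast chose the whole window, so these values too are a description. On the rest of chromosome 8 the median was 0.04 over 325 genes before the window and 0.37 over 222 genes after it. Medians of the other chromosomes ran from -0.32 for chromosome 12 to 0.18 for chromosome 17.

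**Figure D2:**
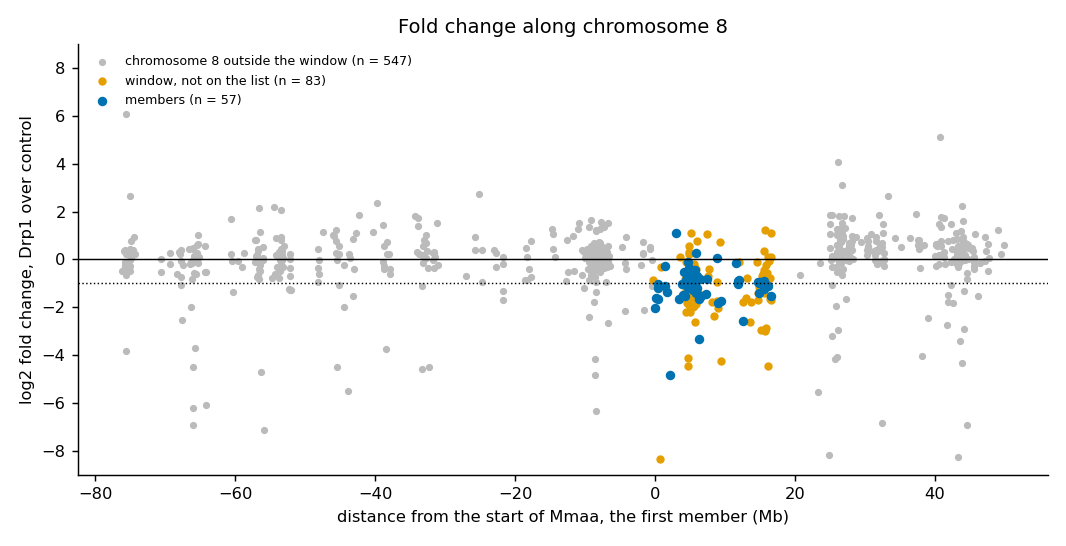
The log2 fold change of Drp1 over control (y axis) is plotted for each tested gene of chromosome 8 against its distance in Mb from the start of Mmaa, the first member (x axis), with members in blue, other genes of the window in orange and the rest of the chromosome in grey. The middle 50% of the 140 tested genes of the window lies between -1.64 and -0.56, around the dotted line at -1, while the medians on either side are 0.04 and 0.37.

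The genes at the edges of the window did not mark a clean border on either side. The first members by position, Mmaa and Smad1, kept 24.4% and 32.2% of control. Just before the window, Gm8054 kept 97.0% at about 1 CPM, Lsm6 45.7%, Slc10a7 133.7%, Rbmxl1 143.5% and Ednra 23.7%. The last member, Got2, kept 34.6%, and its coordinates begin 4.17 Mb before those of the next tested gene. The genes after it were Impdh2-ps at 65.9%, Cdh11 at 2.12%, Gm8730 at 88.9%, Bean1 at 0.272% and Tk2 at 138.1%. Lsm6, an RNA-binding protein of the spliceosome, thus had a value like those of the members although it lies outside the window. Gm8054, Impdh2-ps, Ednra and Gm8730 had control means of 0.967, 1.05, 2.95 and 4.03 CPM, so their shares are less precise. Bean1 had a mean of 8.54 CPM in control and 0.0232 CPM in Drp1 libraries, so its share rests on very few tags.

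The members were low in each of the 5 Drp1 libraries. Relative to the control mean, with 0.5 CPM added, the median member stood at -1.03, -0.97, -1.08, -1.06 and -1.14 on the log2 scale in Drp1 replicates 1 to 5. In control libraries the same median lay between -0.02 and 0.02. Since the members were chosen as low in these libraries, the gap between the groups is a description, and the SD of the median over Drp1 libraries was 0.06. The 57 members together made up 0.846% ± 0.0158 (SD, n = 6) of the counts of a control library, and 0.414% ± 0.0137 (SD, n = 5) of those of a Drp1 library. Their lowest control share was 0.824% and their highest Drp1 share 0.436%, so the groups did not overlap. In the median over the rest of chromosome 8, the same Drp1 libraries stood between 0.09 and 0.15.

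**Figure D3:**
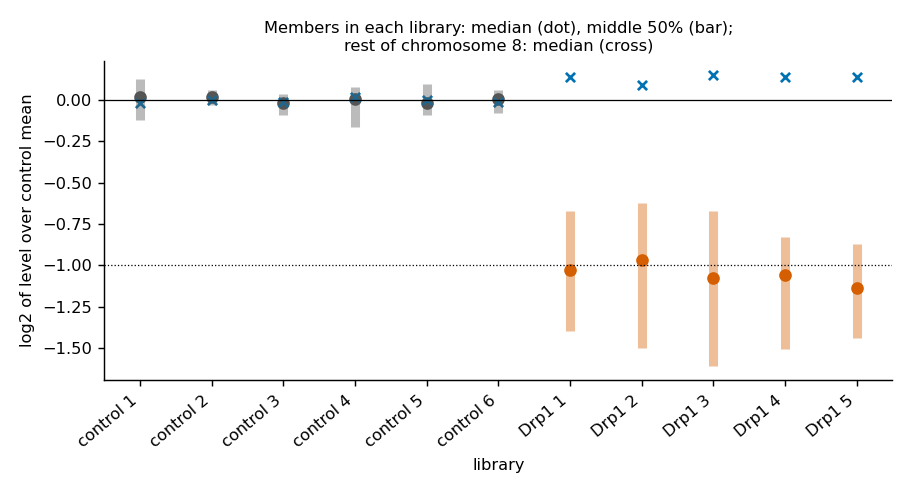
For each library (x axis), the dot is the median over the 57 members of the log2 level relative to the control mean, the bar spans the middle 50% of members, and the cross is the median over the rest of chromosome 8 (y axis). The 5 Drp1 libraries sit between -1.14 and -0.97 and the 6 control libraries between -0.02 and 0.02.

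Signalling genes ranged most widely, from 3.55% to 209.2% of control over 9 members. In 7 every Drp1 library lay below every control library, a pattern seen in 25.4% of all genes tested. Smad1, which carries signals of bone morphogenetic proteins to the nucleus, had control values of 61.5 to 71.8 CPM with a median of 67.9. In Drp1 replicates 1 to 5 it stood at 22.2, 21.2, 21.7, 22.3 and 21.5 CPM. Its Drp1 libraries varied least of any member, with a coefficient of variation of 2.11%, around a log2 fold change of -1.63 (SE 0.06). Inpp4b, a phosphatase of phosphoinositides that limits AKT signalling, ran from 9.44 to 16 CPM in control with a median of 10.9, and Drp1 libraries read 0.406, 0.696, 0.206, 0.377 and 0.349 CPM. It kept the least of any member and rested on 34 counts over the 5 Drp1 libraries, so its size is less certain than its direction.

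Prkaca encodes a catalytic subunit of protein kinase A. Control libraries gave 305.6 to 358.1 CPM with a median of 340.1, and Drp1 libraries 149.2, 159.4, 154.2, 147.2 and 141.1 CPM, or 44.3% of the control mean. Asf1b, which lies just before it on the same strand (83955507 to 83970197, against 83972993 to 83996443 for Prkaca), encodes a histone chaperone and kept 93.7%, with overlapping groups. The bases before the Prkaca start are shown because Prkaca was low in every Drp1 library while the gene next to it was not. They are from RefSeq (GRCm38.p6, chr8:83972728-83972977, plus strand), and capitals mark CCAAT, searched on both strands.
Prkaca: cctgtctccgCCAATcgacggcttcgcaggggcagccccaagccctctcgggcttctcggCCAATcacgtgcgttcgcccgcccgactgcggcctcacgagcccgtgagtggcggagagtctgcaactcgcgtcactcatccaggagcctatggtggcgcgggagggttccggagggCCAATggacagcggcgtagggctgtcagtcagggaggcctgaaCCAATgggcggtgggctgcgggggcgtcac
There are 4 such matches in these 250 bases. CCAAT was found in 33.8% of 32851 promoter windows of this length, and 4 or more in 0.84% of them. A promoter window was given for 51 of the 58 members, and 24 of these hold the motif in any of their windows. A gene can have several windows, so this count of genes is not comparable with the share of windows. Whether CCAAT has a part in the low level of Prkaca was not tested.

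Of the other signalling members, Gab1, an adaptor downstream of receptor tyrosine kinases, had 6.19 to 14.6 CPM in control (median 8.42) and 7.54, 11.7, 9.48, 5.09 and 5.64 CPM in Drp1 libraries, and the groups overlapped. Il15, a cytokine made by muscle, ran against the rest: control libraries held 0.0902 to 0.573 CPM (median 0.267) and Drp1 libraries 0.754, 0.773, 0.721, 0.565 and 0.349 CPM. That difference rests on 31 counts over the control and 55 over the Drp1 libraries, and the groups overlapped. Csnk2a2, a catalytic subunit of casein kinase 2, kept 46.8%. Gipc1, a scaffold for trafficking receptors, kept 55.1%, Elmod2, an activator of ARF-type GTPases, 35.3%, and Tbc1d9, a protein with a Rab GTPase-activating domain, 48.9% at about 1 CPM.

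**Figure D4:**
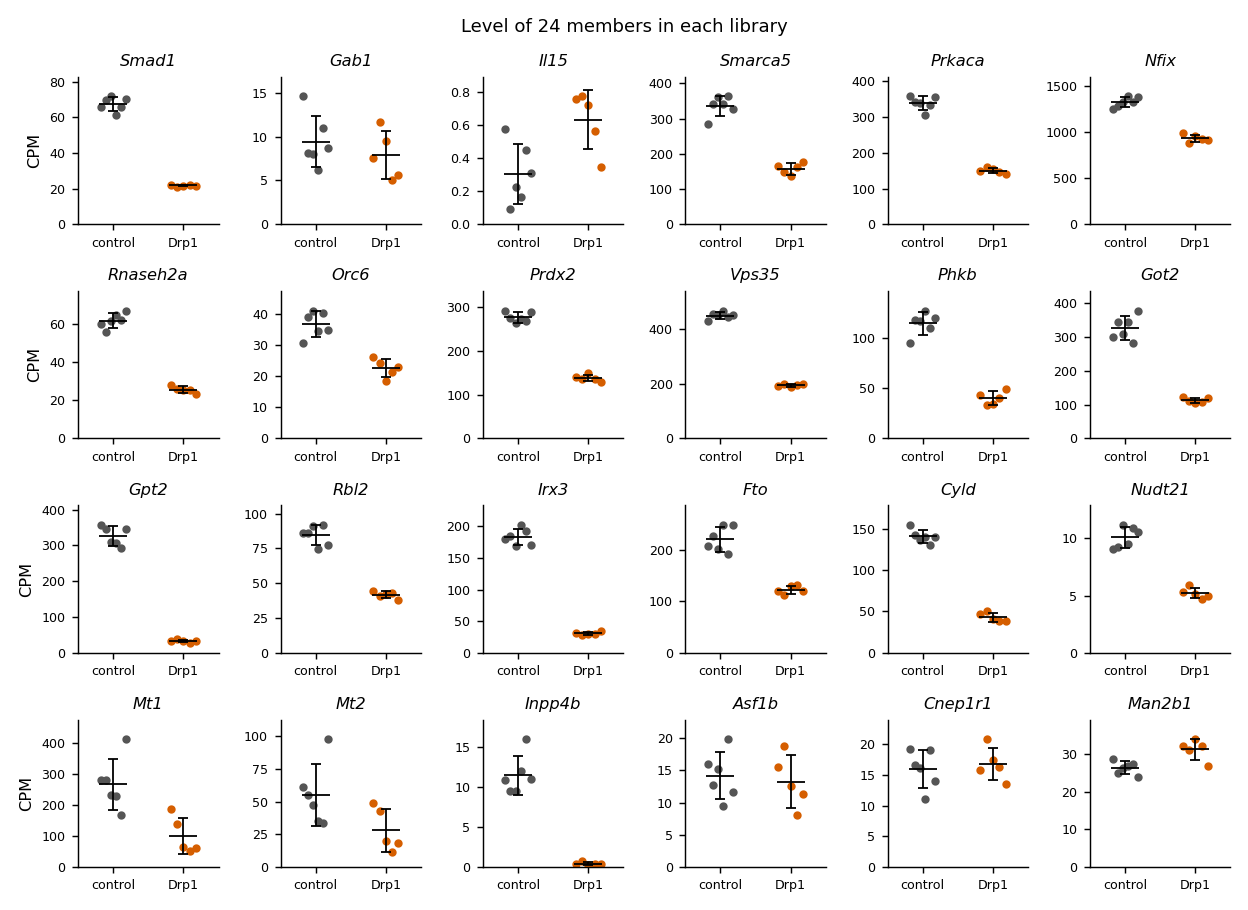
Each panel plots the level of 1 member in CPM (y axis, from 0) in the 6 control and 5 Drp1 libraries, with points for libraries and a bar and whiskers for the mean and SD. In Smad1, Vps35, Prdx2 and most other panels the Drp1 points lie below the control points, while Gab1, Il15, Mt1, Mt2, Asf1b, Cnep1r1 and Man2b1 overlap.

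Among 11 members of chromatin and transcription the median kept 49.3% of control. Smarca5, the ISWI ATPase that slides nucleosomes, had 285.4 to 363.3 CPM in control (median 341.0) and 164.5, 147.4, 135.7, 161.4 and 176.3 CPM in Drp1 libraries. Rbl2, the pocket protein p130 that holds E2F target genes off in resting cells, had 74.5 to 92.1 CPM in control (median 86.1) and 44.2, 40.8, 42.5, 43.0 and 38.2 CPM in Drp1 libraries. For both genes the highest Drp1 library was well below the lowest control library. Irx3, a homeobox transcription factor, showed the lowest share in this group at 16.6%. It had 168.5 to 202.7 CPM in control (median 182.7) and 30.4, 28.3, 29.8, 29.8 and 33.7 CPM in Drp1 libraries. Its antisense transcript Irx3os, which shares 1653 bases with it, kept 28.3%, with means of 2.11 CPM in control and 0.597 CPM in Drp1 libraries. No strand setting is given, so some of the few Irx3os tags could be those of Irx3.

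Nfix, a nuclear factor I protein that drives the fetal muscle programme, kept more than the median member. Control libraries held 1255 to 1392 CPM (median 1329), and Drp1 libraries 989.1, 887.1, 959.7, 925.1 and 915.4 CPM, or 70.3%. The groups did not overlap. Brd7, a bromodomain subunit of a SWI/SNF complex, kept 28.5%, Zfp330, a zinc finger protein, 32.0%, Cc2d1a, a repressor and endosomal scaffold, 46.1%, and Nacc1, a BTB domain repressor, 53.3%. Rfx1, a winged-helix factor, kept 78.3% and Chd9, a chromodomain helicase, 89.3%, and in both the groups overlapped. Asf1b had 9.45 to 19.9 CPM in control (median 14.0) and 15.6, 18.8, 12.5, 8.05 and 11.3 CPM in Drp1 libraries.

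All 6 members of the ubiquitin system were below control, and in 5 of them the groups did not overlap, a pattern seen in 25.4% of all genes tested. Cyld, a deubiquitinase that restrains NF-kappa-B signalling, had 130.1 to 155.1 CPM in control (median 140.3) and 47.4, 50.3, 40.3, 38.9 and 37.8 CPM in Drp1 libraries. It kept 30.5%, the least of this group. The deubiquitinases Otud4 and Usp38 kept 32.1% and 38.9%, Anapc10, a subunit of the anaphase-promoting complex that helps to bind its substrates, 49.2%, and Dcaf15, a substrate receptor of a cullin ligase, 57.7%. Siah1a, a RING ubiquitin ligase, kept 57.8% with 12.1 to 28.3 CPM in control and 8.41, 19.9, 15, 9.04 and 7.85 CPM in Drp1 libraries. Its values overlapped, and Siah1a has close paralogs that could share its tags.

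The 5 members of RNA processing and translation kept between 37.5% and 55.5%, and none of them overlapped between groups, a pattern seen in 25.4% of all genes tested. Fto, a demethylase of methylated adenosine in RNA, had 191.6 to 249.3 CPM in control (median 217.3) and 120.5, 112.4, 129.2, 131.3 and 119.8 CPM in Drp1 libraries. Nudt21, the small subunit of cleavage factor Im, which sets where the 3' end of a transcript is cut, had 9.10 to 11.2 CPM in control (median 10) and 5.28, 5.88, 5.10, 4.71 and 5.00 CPM in Drp1 libraries. For Nudt21 the share kept was 51.5% and for Fto 55.5%. Dhps, which makes hypusine on the translation factor eIF5A, kept 37.5%, the tRNA methyltransferase Trmt1 40.8%, and Abce1, which splits ribosomes for reuse, 44.1%.

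Abce1 and Anapc10 are read in opposite directions from start sites that almost meet. In Drp1 libraries both were highest in replicate 2, and the order of the other 4 libraries differed: Abce1 read 51.7, 73.4, 50.7, 50.0 and 53.4 CPM and Anapc10 13.6, 19.6, 14.2, 14.6 and 13.2 CPM. Replicate 2 was also the highest Drp1 library for other members, such as Prkaca, Gpt2, Cyld and Vps35, though not for Smad1 or Got2. A peak in replicate 2 is therefore not particular to this pair. In control libraries Abce1 lay between 119.0 and 133.8 CPM and Anapc10 between 26.9 and 34.6 CPM. The bases between the RefSeq starts are shown because the genes share them: chr8:79711741-79711762 of GRCm38.p6, plus strand, read towards Anapc10, with TGACGTCA, the cyclic AMP response element, in capitals.
Abce1 and Anapc10: ggTGACGTCAttgcgccgcgac
TGACGTCA, which reads the same on both strands, was found in 1.55% of 32851 windows of 250 bases before a start. Among the 51 members with a window, 2 held it in any of their windows, which are these, through the shared bases. Whether TGACGTCA has a part in the level of either gene was not tested.

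For DNA replication and repair, Rnaseh2a, the catalytic subunit of ribonuclease H2, which removes ribonucleotides from DNA, had 55.6 to 67.0 CPM in control (median 61.7) and 28.1, 26.1, 25.4, 25.2 and 23.2 CPM in Drp1 libraries. Orc6, a subunit of the origin recognition complex, had 30.7 to 41.1 CPM in control (median 36.8) and 26.1, 24.1, 18.6, 21.5 and 23.1 CPM in Drp1 libraries. Neither gene overlapped between groups, a pattern seen in 25.4% of all genes tested, and the shares kept were 41.5% and 61.7%.

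The 11 members of mitochondria and metabolism kept a median of 36.6% (10.1% to 53.3%), and their groups did not overlap, a pattern seen in 25.4% of all genes. Their range overlaps those of the other roles, and no difference between roles was tested. Gpt2, the mitochondrial alanine aminotransferase, which exchanges amino groups between alanine and glutamate, had 291.9 to 357.7 CPM in control (median 326.3) and 32.3, 37.7, 32.7, 27.8 and 33.3 CPM in Drp1 libraries, or 10.1%. Got2, the mitochondrial aspartate aminotransferase of the malate-aspartate shuttle, had 282.4 to 377.4 CPM in control (median 325.8) and 121.7, 110.0, 105.1, 107.6 and 119.7 CPM in Drp1 libraries, or 34.6%. Both aminotransferases were thus low, Gpt2 by a log2 fold change of -3.32 (SE 0.09) and Got2 of -1.53 (SE 0.08).

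Phkb, the regulatory beta subunit of phosphorylase kinase, which switches on glycogen breakdown, had 94.4 to 126.8 CPM in control (median 117.0) and 42.8, 33.1, 33.9, 39.7 and 49.5 CPM in Drp1 libraries. Prdx2, a peroxide-reducing enzyme of the cytosol, had 262.4 to 291.8 CPM in control (median 273.3) and 139.4, 136.7, 149.4, 135.6 and 128.3 CPM in Drp1 libraries. Phkb kept 34.9% and Prdx2 50.0%, each with its groups apart. Mmaa, which serves the cobalamin-dependent methylmalonyl-CoA mutase, kept 24.4%, Tecr, the last reductase of long-chain fatty acid elongation, 34.1%, and Lonp2, a peroxisomal protease, 36.6%. Coq9, needed for coenzyme Q synthesis, kept 41.9%, Gadd45gip1, a protein of the mitochondrial ribosome, 44.1%, Ciapin1, an iron-sulphur protein that feeds cytosolic cluster assembly, 53.0%, and Gcdh, the glutaryl-CoA dehydrogenase of lysine breakdown, 53.3%.

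Transport genes kept a median of 55.1% over the 8 with a row, and 7 did not overlap between groups, a pattern seen in 25.4% of all genes tested. Vps35, the core of the retromer that returns cargo from endosomes, had 428.1 to 465.8 CPM in control (median 449.3) and 189.5, 199.9, 186.0, 194.9 and 196.7 CPM in Drp1 libraries. It had the smallest control spread of any member, a coefficient of variation of 2.80%, and kept 43.2%. Hook2, a microtubule linker, kept 50.2%, Nup93, a scaffold of the nuclear pore, 52.3%, Aktip, a protein that binds Hook linkers, 54.0%, Itfg1, a membrane protein, 56.2%, Scoc, a Golgi coiled-coil protein, 68.9%, and Tnpo2, a nuclear import receptor, 74.1%. Cnep1r1, the partner of a nuclear envelope phosphatase, had 11 to 19.2 CPM in control (median 16.4) and 15.8, 20.9, 17.4, 16.3 and 13.6 CPM in Drp1 libraries, an overlapping range.

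Of the lysosomal and chaperone genes, Dnaja2, an HSP70 co-chaperone, kept 32.0% and Dnase2a, the acid nuclease of lysosomes, 62.5%. Neither of them overlapped between groups, a pattern seen in 25.4% of all genes tested. Man2b1, the lysosomal alpha-mannosidase, stood at 118.5%, with 23.9 to 28.6 CPM in control (median 26.7) and 32.2, 31.2, 34.1, 32.2 and 26.8 CPM in Drp1 libraries. Drp1 replicate 5 fell within the control range of Man2b1, and the other Drp1 libraries lay above it.

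The metallothioneins Mt1 and Mt2 varied widely between libraries, and Mt1 had the highest coefficient of variation of any member in Drp1 libraries, 59.6%. Mt1 had 168.1 to 413.6 CPM in control (median 255.9) and 186.1, 137.7, 64.0, 51.0 and 59.7 CPM in Drp1 libraries. Mt2 had 33.2 to 98.0 CPM in control (median 51.1) and 48.5, 42.8, 19.6, 11.6 and 18 CPM in Drp1 libraries. Control replicate 6 was the highest control library and Drp1 replicate 1 the highest Drp1 library for both genes, and both overlapped between groups. Log2 fold changes were -1.42 (SE 0.35) for Mt1 and -0.98 (SE 0.39) for Mt2. The genes are close paralogs, so the division of tags between them is uncertain. Their upstream bases from RefSeq (GRCm38.p6, plus strand, chr8:94178839-94179081 for Mt1, chr8:94172368-94172617 for Mt2) are shown because metal-responsive transcription of these genes runs through short elements near their starts. The Mt1 stretch was cut to 243 bases so that it holds no annotated exon. Elements outside the stretches are not marked, so the matches below are not a count of each gene's elements. Capitals mark the cores TGCACNC and TGCGCNC, where N is any base, on either strand.
Mt1: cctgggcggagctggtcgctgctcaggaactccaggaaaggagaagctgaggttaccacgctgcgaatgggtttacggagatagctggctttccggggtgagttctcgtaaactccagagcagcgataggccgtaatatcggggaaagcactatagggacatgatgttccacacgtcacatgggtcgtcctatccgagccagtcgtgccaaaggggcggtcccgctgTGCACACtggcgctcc
Mt2: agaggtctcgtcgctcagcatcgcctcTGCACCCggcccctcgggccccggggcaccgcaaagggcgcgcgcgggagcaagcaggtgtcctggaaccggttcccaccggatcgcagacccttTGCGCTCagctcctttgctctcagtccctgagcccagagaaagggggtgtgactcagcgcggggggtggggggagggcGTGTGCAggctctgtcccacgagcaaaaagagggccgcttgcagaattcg
There is 1 match in the Mt1 stretch of 243 bases and 3 in the Mt2 stretch of 250 bases. At least 1 core was found in 21.4% of all 32851 windows. Of the 51 members with a window, 15 held a core in any of their windows, a count of genes that is not comparable with the share of windows. Whether the cores have a part in the levels of Mt1 and Mt2 was not tested.

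Many members work in complexes or pathways whose other parts are encoded elsewhere, and those genes played no part in choosing the stretch. In all, 20 such groups were set beside 21 members, with 101 partner genes listed and 98 tested. Of the 98, 30 rose, 28 fell and 40 missed the threshold of 0.05 on the adjusted p (edgeR quasi-likelihood test). With scaling by library totals alone 39 rose and 24 fell, and with a replicate block 24 rose and 27 fell. Of all genes tested under TMM scaling, 33.9% were higher and 33.3% lower. The median partner stood at 97.5% of control, whereas the 21 members had a median of 49.2%. In 17 of the 21 comparisons every partner kept a larger share of control than the member did. The members were chosen as low, so this order is a description.

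**Figure D5:**
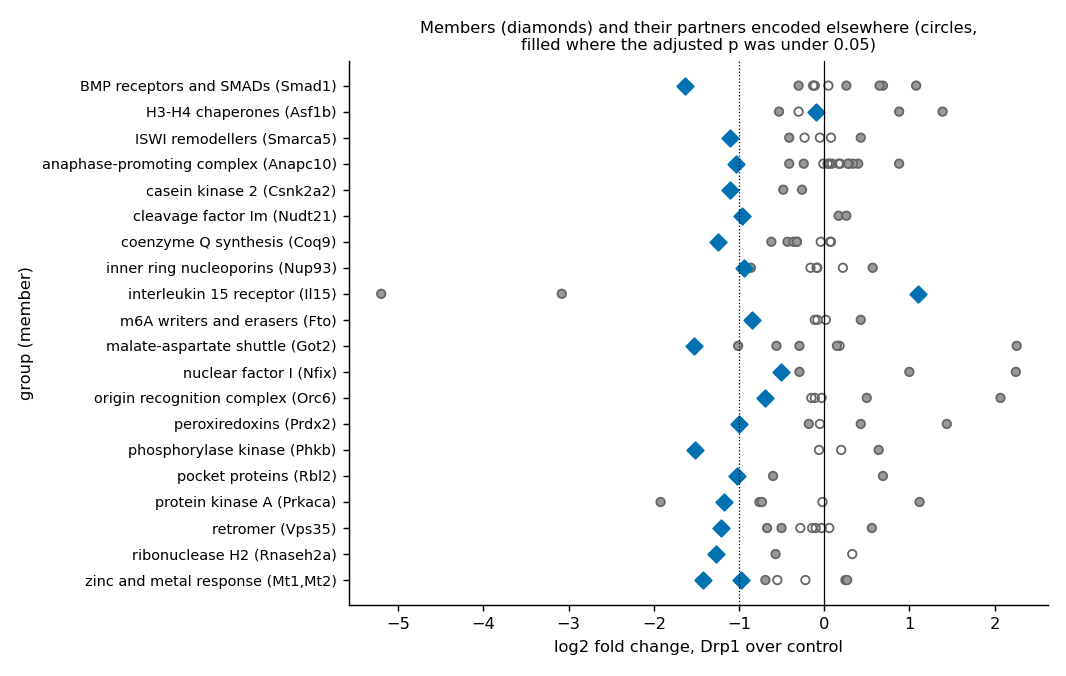
For each group (y axis), the blue diamond is the log2 fold change (x axis) of the member on chromosome 8 and the circles are its partners encoded elsewhere, filled where the adjusted p was under 0.05. Most diamonds lie below 0 and most circles between -1 and 1, with the interleukin 15 receptor subunits far to the left.

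In several groups the median partner stayed near its control level. Of 13 partners of Anapc10 in the anaphase-promoting complex, 5 rose and 2 fell, and their median share was 112.3%. Of 8 retromer partners of Vps35, 1 rose and 2 fell (median 92.0%), and of 5 origin recognition partners of Orc6, 2 rose and none fell (median 98.0%). Among 4 genes that write or erase methylated adenosine beside Fto, 1 rose and none fell (median 98.2%). Both partners of Nudt21 in cleavage factor Im rose, by 0.17 and 0.26 on the log2 scale for Cpsf6 and Cpsf7 (adjusted p = 0.0094 and 0.0049, edgeR). Of 8 BMP receptors and SMADs beside Smad1, 4 rose and 1 fell, and of 6 inner ring nucleoporins beside Nup93, 1 rose and 1 fell.

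In other groups the partners were lower too, or mixed. Both casein kinase 2 partners of Csnk2a2 fell, to 71.5% and 83.5% of control, and 4 of 8 coenzyme Q genes beside Coq9 fell while none rose. In the malate-aspartate shuttle 3 of 6 partners of Got2 fell and 2 rose, with a median share of 96.1%. Those that fell included Got1, the cytosolic aspartate aminotransferase. Got1 went from 119.3 ± 16.4 to 59.4 ± 8.13 CPM (mean ± SD over 6 and 5 libraries, adjusted p = 1.0e-06, edgeR). The shuttle carrier Slc25a13 rose from 0.559 to 2.71 CPM (adjusted p = 7.4e-05). Of 5 protein kinase A partners, 3 fell and 1 rose. The regulatory subunit Prkar1b went from 1.78 to 0.451 CPM, or 25.3% (adjusted p = 2.0e-04), and Prkar2b stood at 217.3% (adjusted p = 1.6e-08). The other catalytic gene Prkacb was at 130.3 and 128.6 CPM (adjusted p = 0.84). Of 3 listed genes of the interleukin 15 receptor, 2 were tested, and both were near the floor in Drp1 libraries. Il2rb fell from 2.37 to 0.275 CPM, or 11.6% (adjusted p = 8.6e-07). Il2rg fell from 7.75 to 0.205 CPM, or 2.64% (adjusted p = 1.9e-11).

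Some relatives of the members rose and others fell. Beside Nfix, the nuclear factor I genes Nfia and Nfib rose to 476.9% and 200.1% of control (adjusted p = 1.9e-09 and 1.9e-08, edgeR) and Nfic fell to 82.0% (0.0085). Beside Prdx2, the endoplasmic reticulum enzyme Prdx4 rose to 271.4% (adjusted p = 1.5e-11) and Prdx6 fell to 49.7% (1.4e-07). Beside Orc6, the ATPase subunit Orc1 rose from 0.641 to 2.72 CPM (adjusted p = 1.7e-05). Next to Asf1b, the chromatin assembly subunit Chaf1b rose to 262.3% (adjusted p = 5.1e-05), and next to Smad1 the receptor gene Acvr1 rose to 211.6% (adjusted p = 0.023) with overlapping groups. For ribonuclease H2, Rnaseh2c fell to 67.4% (adjusted p = 7.9e-05) and Rnaseh2b was at 126.2% (adjusted p = 0.061).

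Across the 57 members, the log2 fold change and the log2 control level had Pearson's r of -0.30 and Spearman's rho of -0.38. The control level enters both measures and the members were chosen on the fold change, so no relation is read from these values. The points are genes that share the same 11 libraries and a stretch of chromosome. The spread between libraries was moderate: the median coefficient of variation was 8.46% in control and 10.7% in Drp1 libraries for the members, and 12.2% and 13.7% for all genes. Because no strand setting is given for the counting, tags of overlapping genes on opposite strands cannot be told apart. This touches 16 members, among them Rbl2 and Aktip, which share 12061 bases, and Nacc1 and Trmt1, which share 1556.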

How the data were processed

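QuantSeq 3' tag libraries of C2C12 cells were used as whole-number counts per Ensembl gene that the authors deposited, 6 control and 5 Drp1 libraries. The sources used here do not give the aligner, counter, gene model release or strand setting. Builds GRCm38 and mm10, and DESeq2 1.22.2, are named per the submitters' processing notes. Groups came from the hairpin named in the labels. Of 15113 genes, 13025 passed filterByExpr. TMM scaling and the robust quasi-likelihood test of edgeR 4.0.16 (R 4.3.3), with Benjamini-Hochberg adjustment over all tested genes and a threshold of 0.05, compared Drp1 with control. Levels are CPM after TMM, and shares of control are ratios of group means. Positions came from GENCODE M21 by Ensembl identifier, found for 15080 genes. The fit was tested on simulated data in which few genes changed. In the real data 67.1% of genes tested were called changed, a setting the simulation did not cover. Alternatives were other scalings and filters, limma-voom 3.58.1, DESeq2 1.42.0, a replicate block and leaving out libraries. The members, partner genes and marker lists were chosen with earlier results of these data known. Each member with a row is given in the text. Values per library are given for a set list of members and for the 3 with the lowest and the 3 with the highest share left at 10 CPM or more in control; Abce1, Anapc10 and Siah1a were added after their values were seen. The 5 tested genes nearest the window on each side are given. Partners are named where the adjusted p was under 0.05 and the change at least 2-fold, and Cpsf6, Cpsf7, Csnk2a1, Csnk2b, Prkacb, Nfic, Rnaseh2b and Rnaseh2c were named after their values were seen.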

Additional observations from a re-analysis of the deposited data

Results flagged for a closer look

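In 5 of 118 groups of values examined, 1 library stood apart from the rest of its group by Dixon's criterion, where chance gives about 5.9. All 5 are Drp1 values, 3 in Drp1 replicate 2 and 2 in Drp1 replicate 3. In Drp1 replicate 2, Abce1 was at 73.4 CPM (other Drp1 libraries 50.0 to 53.4), Anapc10 at 19.6 CPM (13.2 to 14.6) and Ciapin1 at 91.0 CPM (102.4 to 105.3). In Drp1 replicate 3, Gcdh was at 7.36 CPM (5.70 to 6.11) and Mmaa at 9.12 CPM (6.40 to 7.02). Each of these values lay below every control library of its gene.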

How the results depend on the processing

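The median log2 fold change of the members was -1.03. It was -0.93 with scaling by library totals alone, which moved the median of all genes from 0.03 to 0.13, -1.10 with limma-voom, -1.09 with a replicate block and -1.14 without control replicate 1 and Drp1 replicate 2, an alternative chosen after seeing the data. Leaving out 1 library at a time gave -1.14 to -1.03. Members called higher numbered 2, and 1 under the stricter filter, which drops Il15, 0 with the replicate block, 1 without those 2 libraries, and 1 to 2 with 1 library left out. Members called lower stayed between 49 and 51. Partner genes higher ranged from 24 to 39 and lower from 24 to 32, against 30 and 28. The sign of Cnep1r1 (0.07) turned to -0.03 without Drp1 replicate 2 and -0.02 without control replicate 4, and that of Asf1b (-0.10) to 0.04 without Drp1 replicate 4 and 0.01 without control replicate 5. The causes were not tested. Replicate numbers did not pair libraries: same-numbered libraries correlated at -0.238 to 0.441, best with their own number in 1 of 5. The count of non-overlapping members has no value under DESeq2, limma-voom or the block. Low counts limit Il15, Inpp4b and Tbc1d9.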
